A study of Mus musculus with 32 samples.

Results

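The genes described here are 44 genes of DNA replication in the mouse. They were taken as a named list of the pathway, without use of any measured value, out of 21938 protein-coding genes of GENCODE M21 on mm10. Earlier results of these data were known when the list was chosen. The list holds 12 genes of the replicative helicase, 8 of origin recognition and licensing, 6 of the sliding clamp and its loader, 8 of the polymerases and primase, 3 of the single-strand binding protein RPA, 2 of flap removal and ligation, 4 of nucleotide supply, and Uhrf1. All 44 carried an H3K27ac peak within 1 kb of an annotated start site in both libraries made before induction. They were set beside the 9693 other protein-coding genes with such a peak, so that active promoters were compared with active promoters. A start site is any annotated start of the gene, with a median of 5 per gene in both lists, and the windows around them spanned a median of 22093 bp per member and 18264 bp per other gene.

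The cells were B3, a mouse pre-B cell line transduced by retrovirus with an Ikaros-ERt2 construct, and every library came from this transduced line. The ERt2 domain holds its fusion partner in the cytoplasm until 4-hydroxytamoxifen (4-OHT) is added, and Ikaros is a zinc-finger transcription factor of lymphoid cells that binds the NuRD corepressor complex. ChIP-seq, in which DNA bound by a chosen protein is precipitated and sequenced, was done for the HA-tagged Ikaros fusion, for CHD4, which is the remodelling ATPase of NuRD, and for H3K27ac, an acetyl mark on histone H3 that stands at promoters and enhancers in use. Untreated cells (0 h) were compared with cells given 500 nM 4-OHT for 30 min, 1 h or 2 h, with 2 libraries per target and time. The construct was added to the line, the 0 h cells are labelled as untreated rather than vehicle-treated, and so an effect of 4-OHT itself and an effect of Ikaros entry cannot be told apart. The labels do not say whether the replicates were separate cultures, so p-values measure only the spread between these libraries.

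The 8 Ikaros libraries gave 5373 to 14874 peaks, the CHD4 libraries 2488 to 9593 and the H3K27ac libraries 21468 to 33664. Mean coverage recovered from the lists was 1.98 to 3.59 fragments per base for Ikaros, highest in the 0 h libraries, and 3.75 to 4.34 for H3K27ac. The line matched its label: at 0 h the promoters of 7 of 7 pre-B genes carried H3K27ac in both libraries, against 0 of 4 T cell genes, 0 of 4 myeloid genes, 0 of 2 NK genes and 1 of 3 erythroid genes, Klf1.

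DNA replication starts when the origin recognition complex, Cdc6 and Cdt1 load a ring of MCM proteins on DNA. Cdc45 and the GINS complex then turn this ring into the active helicase, RPA coats the exposed strands, primase and the polymerases copy them, and PCNA, loaded by replication factor C, clamps the polymerases to the template. Most of these genes are switched on together in late G1 by E2F transcription factors, and pre-B cells use them during their proliferative phase, before they leave the cycle and rearrange their light chain genes.

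The promoters of the list are shown first by the E2F words in them. RefSeq promoters of 300 bases around the start (GRCm38.p6) matched 37 of the 44 genes. The words searched for were TTTGGCGC, TTTCCCGC, TTTGCCGC and TTTCGCGC with their reverse complements GCGCCAAA, GCGGGAAA, GCGGCAAA and GCGCGAAA, so both strands were read. A word stood in the promoter of 15 of the 37 genes (40.5%), against 5.03% of 7677 other genes with promoter H3K27ac and 2.61% of all 27025 genes of the table. The following stretches each show such a word with 10 bases on each side, 5′ to 3′ on the strand of the gene. Capitals mark every E2F word within the stretch, and in Mcm5, Mcm6 and Rfc3 a second word overlaps or follows the first. They were chosen as examples from the helicase, the licensing factors and the clamp loader.

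Mcm5, chr8:75109346-75109373, + strand: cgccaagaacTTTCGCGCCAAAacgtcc

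Mcm6, chr1:128359798-128359825, − strand: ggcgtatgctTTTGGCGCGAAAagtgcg

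Gins3, chr8:95633508-95633535, + strand: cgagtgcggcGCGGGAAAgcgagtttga

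Cdc6, chr11:98908003-98908030, + strand: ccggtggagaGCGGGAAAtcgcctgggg

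Orc1, chr4:108579417-108579444, + strand: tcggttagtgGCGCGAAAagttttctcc

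Rfc3, chr5:151651201-151651228, − strand: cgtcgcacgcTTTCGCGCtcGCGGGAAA

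The words lay close to the annotated start sites, at −153 in Mcm5, −110 in Mcm6, −41 in Gins3, −138 in Cdc6, −27 in Orc1 and −10 in Rfc3, counted from the start site to the first base of the first word in the stretch. The word GCGGGAAA or its complement, which also contains the Ikaros core letters GGGA and GGAA, stood in 8 of 37 genes (21.6%), against 2.59% of other genes with promoter H3K27ac. CCAAT or ATTGG, the box bound by the factor NF-Y, stood in 23 of 37 (62.2%), against 43.5% of the others. In genes of mitosis it stood in 16 of 19 (84.2%).

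The second set of stretches comes from under the Ikaros peaks. Ikaros recognises a core of GGAA or GGGA. Both cores and their reverse complements, TTCC and TCCC, were counted in the 50 bases on either side of each summit, with overlapping words counted separately. At 2 h the members carried 3.15 to 3.36 such words per 100 bases, against 3.18 to 3.40 at summits near other genes and 2.18 to 2.64 in the flanks of the members. At 0 h the members carried 4.68 to 4.75 and the others 4.35 to 4.40. The stretches below are the 30 bases of a 2 h summit window with the most core words, which stand in capitals. Pcna, Orc1 and Mcm3 are shown because they were among the strongest peaks, Orc2 and Prim2 because their peaks were absent at 0 h, and Tyms because its window held no core word.

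Pcna, chr2:132253418-132253447, − strand: TTCCacTTCCgtggcgcGGAAacTTCCtaa

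Orc1, chr4:108579216-108579245, + strand: GGGAAacattaaGGAATCCCttgcgaccgc

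Mcm3, chr1:20820271-20820300, − strand: TTCCgtggcGGGAAaacttGGGAAgttttg

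Orc2, chr1:58505114-58505143, − strand: TCCCTTCCCccGGAAacGGAAactgaagag

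Prim2, chr1:33669771-33669800, − strand: TTCCgcTTCCCgTTCCaaatgaactcTCCC

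Tyms, chr5:30073410-30073439, − strand: tgcggcttcaagaaggaggaccgcacgggc

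These windows held 6 core words at Pcna, 7 at Orc1, Mcm3 and Prim2, 9 at Orc2 and 0 at Tyms. Their summits lay 89 bp upstream of a start site in Pcna, 158 bp upstream in Orc1, 19 bp in Mcm3 and 15 bp in Orc2, and 19 bp downstream in Prim2 and 98 bp downstream in Tyms. At the other members without a peak at 0 h but with one in both 2 h libraries, such windows held 1 to 3 words. Among the 8 members with the highest mean Ikaros rank at 2 h they held 2, at Gins2 and Cdc6, to 7. An Ikaros peak in both 2 h libraries was found at 10 of the 15 genes with an E2F word in the promoter and at 14 of the 22 without.

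Ikaros was found near many replication genes before induction, at a share close to that of other active genes, and at more genes of both lists at 1 h and 2 h. A peak overlapping the 5 kb on either side of a start site was called at 18 and 20 of the 44 genes in the 2 libraries at 0 h, at 25 and 15 at 30 min, at 33 and 34 at 1 h and at 33 and 33 at 2 h. At 0 h the share averaged 43.2% ± 3.21 (SD, n = 2), followed by 45.5% ± 16.1 after 30 min, 76.1% ± 1.61 after 1 h and 75% ± 0 after 2 h. Over the other genes it averaged 41.0%, 35.2%, 64.0% and 65.2%. The 1 h and 2 h libraries all lay above the 0 h and 30 min libraries, and the 30 min libraries were far apart. In chromatin from a cell population, fewer cells carrying a protein and less of it per cell cannot be told apart. Between 0 h and 2 h, 10 of 44 genes (22.7%) gained a peak, meaning one in both 2 h libraries and in neither 0 h library, and 0 lost it. Over the 9737 genes with promoter H3K27ac the shares were 14% gained and 0.842% lost. Ikaros was called in both 2 h libraries at 29 of 44 genes (65.9%, 54.4% over the 9737 genes) and in all 8 libraries at 12 of 44 (27.3%, 16.5%).

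**Figure D1:**
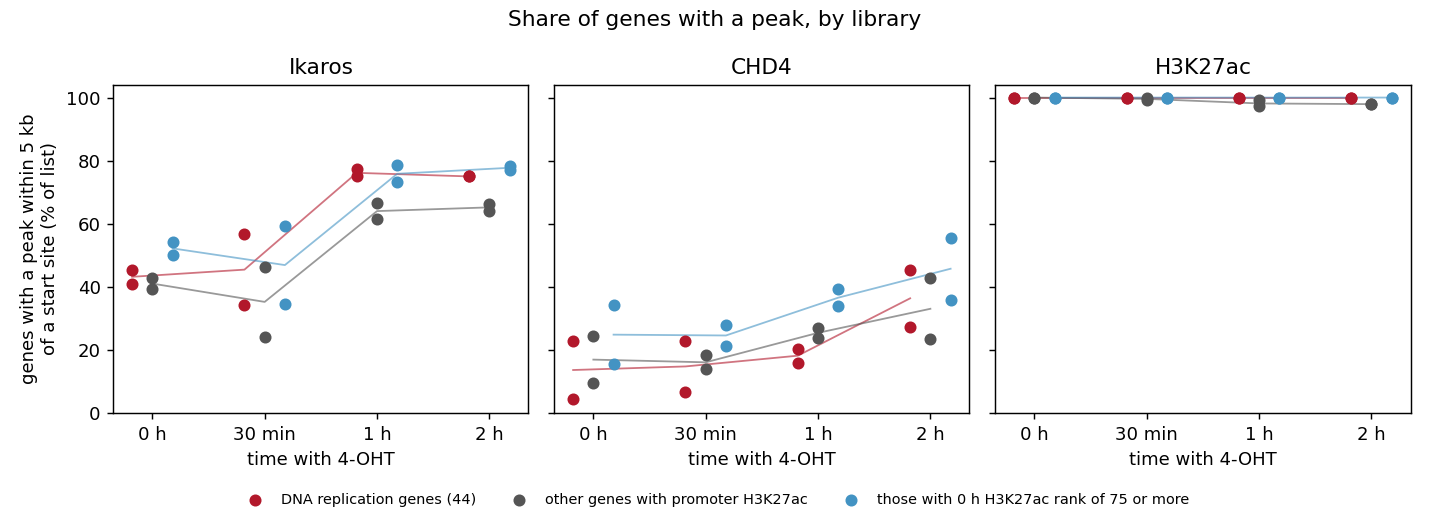
Share of genes with a peak within 5 kb of a start site (y axis, % of the list) in each library by time with 4-OHT (x axis), for the 44 replication genes, the 9693 other genes with promoter H3K27ac and the 4743 of these with an H3K27ac rank of 75 or more. Each point is a library and lines join the means; for Ikaros the replication genes sit at 75 to 77.3% at 1 h and 2 h, above the other genes at 61.5 to 66.6%.

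At 2 h the members lay between the other genes as a whole and those with strong H3K27ac. The members stood at 75% and the others at 65.2%, a difference of 9.81 points. The 4743 others whose H3K27ac peak had a percentile rank of 75 or more stood at 77.7%, a difference of −2.74 points. The members themselves had strong H3K27ac, with 63.6% at rank 75 or more against 48.9% of the others. Within bands of H3K27ac rank, Ikaros was called in both 2 h libraries at 0 of 2 members with rank below 50 (others 28.5%), at 8 of 14 members with rank 50 to 75 (57.1%, others 45.9%), at 11 of 13 with rank 75 to 90 (84.6%, others 62.3%) and at 10 of 15 above 90 (66.7%, others 78.6%). With lists cut to equal size, 1 member gained and 1 lost a peak, where 5.53% and 3.16% of other genes did, and the difference from other genes was 6.83 points at 0 h and 2.46 points at 2 h.

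The 12 helicase genes held 5 of the 10 gains. Mcm2, a subunit of the MCM ring, had no peak at 0 h, a peak in 1 library at 30 min and in both at 1 h, and ranks of 94.7 and 59.4 at 2 h, where a rank of 100 is the highest fold enrichment in its list. Mcm4, another ring subunit, reached 15.4 and 72.1 at 2 h, and Mcm10, which helps to fire the helicase, 46.7 and 63.8. The GINS genes Gins1 and Gins3 stood at 22.1 and 36.5 and at 2.13 and 24.7. Apart from Mcm2 in replicate 1, the gained helicase peaks thus all ranked below 75. Mcm3 was the helicase gene called in all 8 libraries, with ranks of 58.4 and 75.5 at 0 h, 91.5 and 96.6 at 30 min, 76.5 and 94.1 at 1 h and 68.5 and 94.8 at 2 h, so that its 0 h and 2 h libraries overlapped. Gins2, a further GINS subunit, ranked 39.8 and 98.0 at 0 h and 66.9 and 97.5 at 2 h, again with overlap, and was among the 8 highest members at 2 h. Mcm5 was called only in both 1 h libraries, at 48.9 and 46.6, and Cdc45 in a single library, at 2 h.

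Among the origin genes, Orc1 and Orc4 had a peak in all 8 libraries. Orc1, the ATPase subunit that makes the origin recognition complex active, ranked 82.1 and 89.5 at 0 h, 93.4 and 93.7 at 30 min, 96.2 and 95.5 at 1 h and 94.0 and 98.2 at 2 h. Orc4, a further subunit, ranked 82.8 and 68.3 at 0 h and 92.4 and 96.8 at 2 h. Ranks come from lists of unequal length, and over the 1690 genes with an Ikaros peak in all 8 libraries the median difference from 0 h to 2 h was +9.17 rank points, or +0.76 when ranked again among these genes. Orc1 differed by 10.3 points and Orc4 by 19.1 (adjusted p = 0.514 and 0.334). The Orc1 summit stood at 10.0 and 12.5 times the mean coverage at 0 h and at 9.47 and 14.6 at 2 h, with overlap, and that of Orc4 at 8.91 and 8.31 and then 9.47 and 14.6 (+0.45 on the log2 scale, adjusted p = 0.448). A 2 h summit of Orc1 lay nearer to the start of Prpf38a and one of Orc4 nearer to that of Mbd5. Orc2 and Orc5 gained a peak, at ranks of 17.4 and 47.5 and of 36.6 and 66.5 at 2 h, while Orc3 had none in any library. Cdt1, the MCM loading factor, ranked 88.3 and 95.3 at 0 h, 92.9 and 36.9 at 30 min, 94.9 and 23.6 at 1 h and 74.3 and 62.7 at 2 h. Both 2 h libraries lay below both 0 h libraries, while the replicates at 30 min and 1 h were far apart. Cdc6 ranked 87.6 and 92.9 at 2 h, but this peak lay past the annotated end of the gene, 4365 to 4506 bp downstream of an alternative start site and nearer to Rara.

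The clamp gene and the loader genes differed in their Ikaros calls, which was not tested. Pcna, the clamp itself, ranked 55.5 and 90.4 at 0 h, 50.4 and 79.2 at 30 min, 84.2 and 77.2 at 1 h and 97.8 and 98.4 at 2 h, the highest mean rank of the list at 2 h. Its fold enrichment over local background was 4.97 and 9.67 at 0 h and 8.05 and 10.5 at 2 h. The summits held 32 and 41 fragments at 0 h and 30 and 35 at 2 h, in libraries with a mean coverage of 3.59 and 3.13 and of 2.85 and 2.12, so that the summit stood at 8.91 and 13.1 times the mean coverage at 0 h and at 10.5 and 16.5 times at 2 h, and these values overlapped. Of the 5 loader genes Rfc1 to Rfc5, none was called in both libraries of any time, a share not counted over other genes. Rfc3 and Rfc4 were called in no library and the other loader genes in 1 to 4 of the 8. No Ikaros peak in any library was found at 4 of the 44 members (9.09%), against 15.2% of other genes.

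Pole, the catalytic subunit of polymerase epsilon, and Prim2, the large primase subunit, were the gains among the polymerase genes. Prim2 ranked 67.7 and 64.2 at 1 h and 87.6 and 16.9 at 2 h, and Pole 82.8 and 74.5 at 1 h and 67.8 and 25.1 at 2 h. Both were thus better matched between replicates at 1 h than at 2 h. Pold1, the catalytic subunit of polymerase delta, was called in all 8 libraries and ranked 86.3 and 74.3 at 0 h and 97.2 and 83.1 at 2 h. Pold3 had no peak in any library.

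All 3 RPA genes were called in both 2 h libraries, and Rpa1 was a gain, at 18.6 and 32.8. Rpa2, the middle RPA subunit, had the largest positive difference in mean rank between 0 h and 2 h among genes called in all 4 of these libraries, 33.5 points, but its 0 h libraries ranked 1.23 and 89.8 and enclosed those at 2 h, 66.6 and 91.4. All 4 genes of nucleotide supply were called in both 2 h libraries without a gain. Rrm2, the small subunit of ribonucleotide reductase, ranked 17.7 and 28.1 at 0 h, 74.5 and 78.5 at 1 h and 64.4 and 44.4 at 2 h, with every 1 h and 2 h library above both 0 h libraries, while its summit level, 4.45 and 7.67 times the mean coverage at 0 h, lay higher without overlap at 1 h (9.52 and 8.51) and overlapped at 2 h (5.97 and 7.53). Tyms, thymidylate synthase, ranked 85.3 and 83.3 at 0 h and 81.0 and 16.5 at 2 h, and was not called in 1 library at 30 min. Uhrf1, which brings the maintenance methyltransferase to newly copied DNA, ranked 69.5 and 62.0 at 0 h and 91.7 and 91.4 at 2 h. Its summit level was 7.24 and 7.67 at 0 h and 8.42 and 10.8 at 2 h (+0.36 on the log2 scale, adjusted p = 0.555), and in 2 h replicate 2 the peak was another one, at −2868 bp from an alternative start site.

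**Figure D2:**
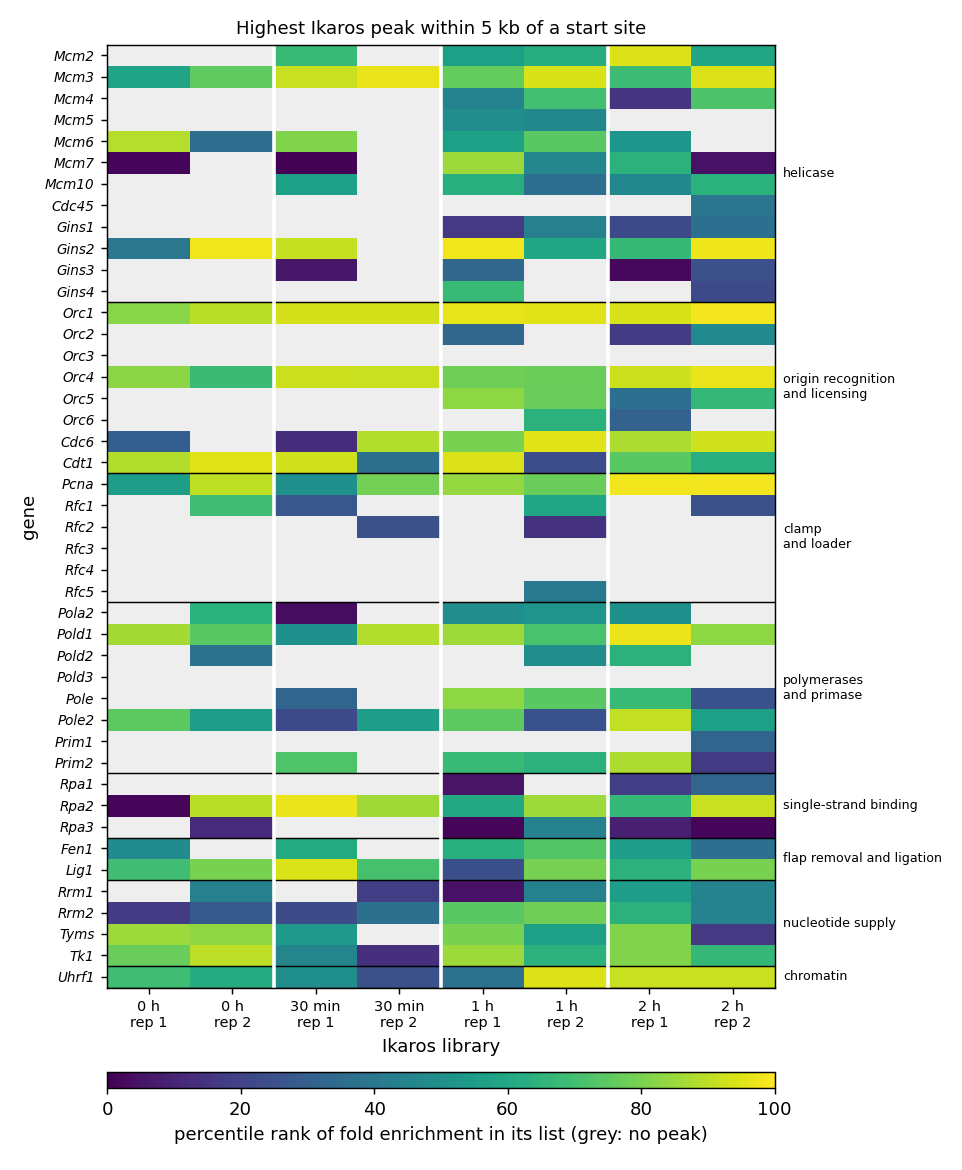
Percentile rank of the highest Ikaros peak within 5 kb of a start site (colour, 0 to 100; grey where no peak was called) for each of the 44 genes (rows, grouped by role) in each of the 8 Ikaros libraries (columns). Orc1, Orc4, Mcm3, Pcna and Uhrf1 are coloured throughout, Rfc3, Rfc4, Orc3 and Pold3 are grey throughout, and of the 5 helicase gains Mcm4 and Gins1 are first coloured at 1 h and the other 3 in 1 library at 30 min.

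No member changed its Ikaros rank past the test. Of 1690 genes with a peak in all 8 libraries, 12 were members, and limma called 16 genes higher (0.947%) and 0 lower at 2 h against 0 h, with 0 members. At 30 min 0 were higher and 1 lower (0.0592%) and at 1 h 0 in both directions, again without a member. At an unadjusted p under 0.05 there were 262 genes and 1 member, Rrm2 (+31.5 ± 10.2 SE, adjusted p = 0.223). In simulated data a shift of 25 rank points was recovered in 0 of 200 genes and one of 50 points in 70 of 200 (35.0%), so smaller differences were not detectable with this design. On the scale of summit fragments over mean coverage, 51 genes were higher (3.02%) and 83 lower (4.91%) and again 0 members. After each library was centred on its median, a choice made after seeing the data, 74 were higher (4.38%) and 155 lower (9.17%), with 1 member, Cdt1, which fell from 13.9 and 16.6 times the mean coverage at 0 h to 7.37 and 8.47 at 2 h (−1.03 ± 0.281 SE on the log2 scale, adjusted p = 0.0139, without centring −0.94 and adjusted p = 0.0611). No member passed at 30 min, where 1.01% of genes were higher and 5.09% lower (centred 3.14% and 6.15%), or at 1 h, where 7.34% were higher and 3.2% lower (centred 4.38% and 9.64%).

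Some of these promoters are shared. Neighbouring genes were counted for the members only, so no share over the other genes stands beside these counts. Another protein-coding gene started within 1 kb of 15 of the 44 members, as Prkdc does beside Mcm4, and at 13 of the 37 members with an Ikaros peak at 2 h a summit lay nearer to such a neighbour or, for Cdc6, to Rara. Of the 10 gains, this held for Mcm4, Gins1 (Abhd12), Pole (Pxmp2) and Rpa1 (Smyd4). Member peaks lay close to start sites, with the summit within 500 bp in 66.7% to 82.4% of members called per library, against 49.1% to 68.1% of the other genes.

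CHD4 was found at fewer replication genes than Ikaros, and its replicates differed widely. It was called at 2 and 10 of the 44 genes at 0 h, at 10 and 3 at 30 min, at 7 and 9 at 1 h and at 12 and 20 at 2 h. Both 2 h libraries lay above all earlier libraries, and the share was 13.6% ± 12.9 at 0 h (SD, n = 2) and 36.4% ± 12.9 at 2 h, against 16.9% and 33.0% of other genes. From 0 h to 2 h, 2 members gained CHD4 (4.55%, 5.72% over the 9737 genes) and 0 lost it (0.503%). CHD4 was called in both 0 h libraries at 0 members (7.97%), in both 2 h libraries at 6 (13.6%, 18.1%) and in all 8 libraries at 0 (3.56%). Without the 2 h library of replicate 1 there were 11 gains and 0 losses, where 22.1% and 0.598% of other genes were gained and lost. There were 6 gains and 1 loss without 0 h replicate 2 (11.9% and 0.815%), and 7 gains and 0 losses without 2 h replicate 2 (9.90% and 2.26%). Requiring a −log10 q of at least 3 left 0, where 0.330% of other genes were gained and 0.217% lost.

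The 6 genes with CHD4 in both 2 h libraries were Cdc6, Cdt1, Orc5, Pold1, Rrm2 and Uhrf1. At Cdc6 the centres of the CHD4 peaks lay 4593 and 4524 bp downstream of the alternative start site, past the end of the gene like its Ikaros peaks. Cdt1 was called in 7 of 8 libraries, absent only from 0 h replicate 1, with ranks of 93.6 and 41.5 at 2 h. Uhrf1 was called in 6 libraries and ranked 65.9 and 81.3 at 2 h. Orc5, a gain, ranked 31.7 and 49.6 at 1 h and 17.7 and 50.7 at 2 h. Rrm2, the other gain, ranked 61.2 and 39.7 at 2 h and was also called in 1 library at 30 min. Pcna, first of the list for Ikaros, had CHD4 at rank 97.7 in 2 h replicate 1 and none in replicate 2. No CHD4 peak in any library was found at 14 of the 44 members (31.8%, 41% over the 9737 genes). The helicase genes had none at 8 of 12 and a peak in both 2 h libraries at 0 of 12, while 8 of the 12 had Ikaros in both 2 h libraries.

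Of the 29 members with Ikaros in both 2 h libraries, 21 (72.4%) had CHD4 in at least 1 of them and 6 (20.7%) in both. The shares of other genes with Ikaros in both 2 h libraries were 67.7% and 30.1%. Of the 7 members with Ikaros in neither 2 h library, 4 had CHD4 in 1 of the 2 h libraries (57.1%, other genes 15.8%) and 0 in both. No member had CHD4 in all 8 libraries, so none entered the limma test of CHD4 rank, in which 1 of 373 genes was higher at 2 h (0.268%) and 0 lower.

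H3K27ac stayed called at every replication gene. All 44 had a peak within 5 kb of a start site in each of the 8 libraries, against 95.7% over the 9737 genes, and 0 lost it (1.1%). At 0 h the median rank of the list was 81.0, against 74.5 for other genes. The strongest gene of each role by mean rank at 0 h was Cdt1 at 99.8 among the origin genes, Rfc4 at 98.3 in the clamp loader, Pold1 at 97.6 among the polymerases, Rrm1, the large reductase subunit, at 97.3, Fen1, the flap nuclease, at 96.1, Mcm7 at 93.9 in the helicase and Rpa3 at 80.2 in RPA. The lowest of each role, which for some roles still lay above the median of the list, were Gins4 at 28.8, Pold2 at 46.7, Rfc3 at 50.4, Rpa1 at 63.3, Orc1 at 70.5, Lig1, which seals nicks, at 84.4 and Tyms at 84.6. Rfc4, with its strong H3K27ac, had no Ikaros peak in any library, and Orc1, the weakest origin gene by H3K27ac, had one in all 8.

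By rank, no member passed the test for H3K27ac. Over 9890 genes limma called 0 at 30 min, 0 at 1 h and 0 at 2 h, in both directions (0%), with 906, 950 and 1260 genes and 2, 5 and 6 members at an unadjusted p under 0.05. The largest differences in mean rank from 0 h to 2 h were +21.6 for Prim1, the small primase subunit, +21.4 for Rpa1 and +21.3 for Rpa2, and −17.8 for Pole2, −9.24 for Tyms and −7.47 for Rrm1. In simulated data a shift of 25 rank points in H3K27ac was recovered in 0 of 200 genes. Differences of this size were thus not detectable. For Rpa1 the ranks were 66 and 60.6 at 0 h and 85.5 and 83.8 at 2 h, without overlap, whereas for Pole2 they were 84.6 and 74.3 at 0 h and 86.7 and 36.6 at 2 h.

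The level of H3K27ac at the summit was measured as fragments over the mean coverage of the library. It does not correct for the efficiency of the precipitation, which was not tested. In these libraries the level was lower at 2 h at most genes, the replication genes included. The median over 9729 genes was 21.4 and 19.3 times the mean coverage at 0 h, 25.1 and 18.4 at 30 min, 19.6 and 15.7 at 1 h and 14.7 and 14.9 at 2 h. From 0 h to 2 h the median change on the log2 scale was −0.42 over these genes and −0.26 over the 43 members measured, all but Cdc6. Both 2 h libraries lay below both 0 h libraries at 28 of 43 members, against 74.4% of all genes tested, and above them at 0, against 2.93%. Limma called 28 genes higher (0.288%) and 1732 lower (17.8%), and of the members 0 rose and 6 fell. These were Tyms (−1.14, adjusted p = 0.00100), Rrm2 (−0.84, adjusted p = 0.0194), Gins4 (−0.79, adjusted p = 0.0293), Orc2 (−0.78, adjusted p = 0.0314), Gins3 (−0.77, adjusted p = 0.0330) and Rfc4 (−0.73, adjusted p = 0.0452), each with an SE of 0.272, since limma gave every gene the same spread on this scale. Orc2 stood at 20.7 and 17.0 times the mean coverage at 0 h and 10.6 and 11.2 at 2 h, Gins3 at 17.4 and 13.3 and then 9.60 and 8.21, Gins4 at 8.00 and 7.21 and then 4.30 and 4.48, and Rfc4 at 54.8 and 48.6 and then 34.6 and 28.1. The 2 h libraries lay below both 0 h libraries at each of these 4 genes, whose change was −0.27 to −0.33 after centring on the median of all genes and no longer passed (adjusted p = 0.209 to 0.312). The count of members was 0 without 0 h replicate 1 and 1, Tyms, without 0 h replicate 2, 2 h replicate 1 or 2 h replicate 2.

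Because the median of all genes moved, the changes were also taken relative to it by centring each library on its median, a choice made after seeing the data. On this scale 383 genes were higher at 2 h (3.94%) and 315 lower (3.24%), so the balance of directions depends on the scaling. Of the members 3 were higher, Cdc45 (+0.74 ± 0.174 SE, adjusted p = 0.0311), Cdt1 (+0.59 ± 0.144, adjusted p = 0.0361) and Rfc3 (+0.74 ± 0.188, adjusted p = 0.0398), and 1 was lower, Tyms (−0.69 ± 0.142, adjusted p = 0.0212). The median over members was +0.20, and 14 of 43 lay below 0. The count of members called was 0 without 0 h replicate 1, 0 h replicate 2 or 2 h replicate 1, and 1, Rfc3, without 2 h replicate 2. Without centring none of the 3 was higher (Cdc45 +0.28, Cdt1 +0.13 and Rfc3 +0.29).

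**Figure D3:**
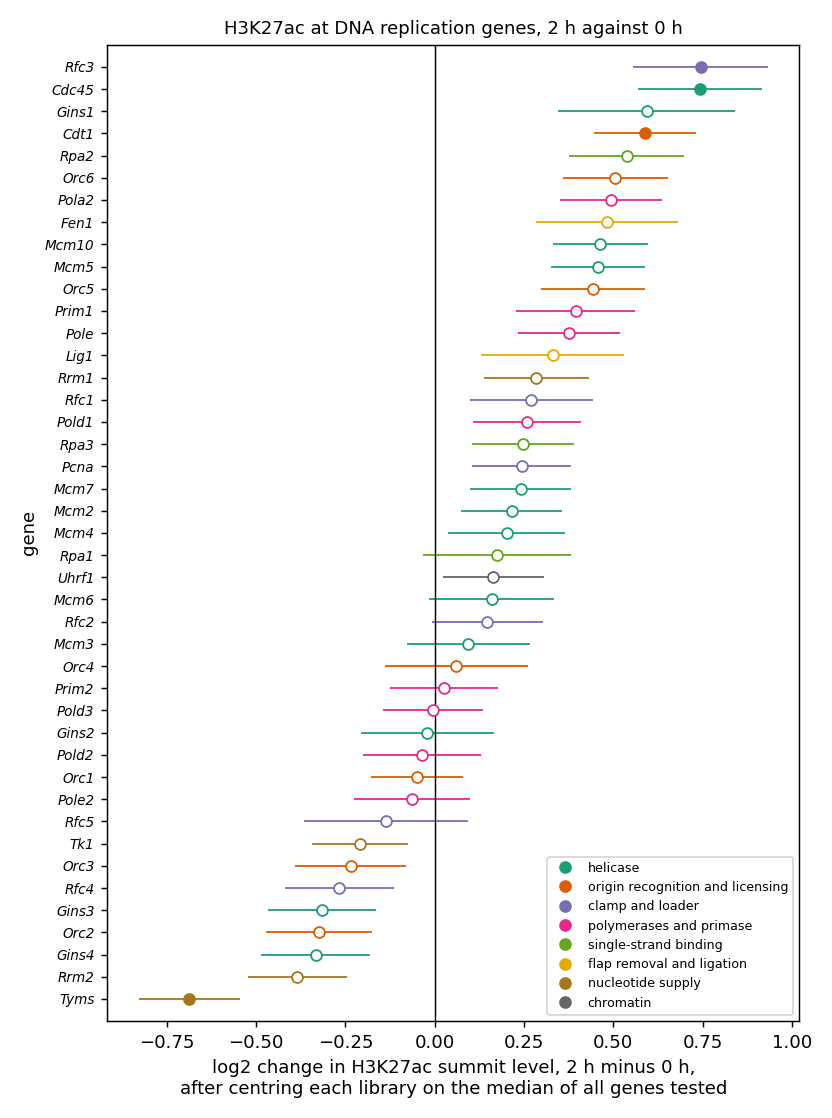
Change in H3K27ac summit level from 0 h to 2 h (x axis, log2, each library centred on the median of 9729 genes) for the 43 replication genes measured (y axis, ordered by change, coloured by role). Points are limma estimates with bars of 1 SE, filled where the adjusted p was under 0.05; Cdc45, Rfc3 and Cdt1 are filled on the right and Tyms on the left, and without centring every point lies lower by the same amount.

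Tyms and Rrm2, genes of nucleotide supply, had the most negative changes of the list. The median change over the 4 genes of this role was −0.75 before centring, against −0.40 for the origin genes, −0.32 for the polymerases, −0.26 for the clamp and loader, −0.25 for the helicase, −0.21 for RPA and −0.05 for Fen1 and Lig1, and the roles were not tested against each other. Tyms stood at 34.3 and 28.6 times the mean coverage at 0 h, 21.9 and 14.9 at 30 min, 17.7 and 17.1 at 1 h and 14.2 and 14.2 at 2 h. Every library after induction lay below both 0 h libraries, and after centring Tyms fell at each time (30 min −0.88, adjusted p = 0.0280; 1 h −0.64, adjusted p = 0.0320), where 0.586% and 2.94% of all genes fell. Without centring it did not pass at 30 min (adjusted p = 0.345, 0.185% of all genes fell and 0.195% rose) or at 1 h (adjusted p = 0.0531, 0.154% rose). No member rose at 30 min on either scale (centred 0.0925% of all genes) or at 1 h without centring. Rrm2 stood at 30.1 and 26.0 at 0 h, 25.9 and 20.7 at 30 min, 17.0 and 12.8 at 1 h and 14.4 and 16.9 at 2 h. It fell at 1 h on both scales (−0.92, adjusted p = 0.0283, 3.08% of all genes fell; centred −0.71, adjusted p = 0.0191), and at 2 h its centred change of −0.38 did not pass the test (adjusted p = 0.118).

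Tk1, thymidine kinase, went from 34.8 and 33.9 at 0 h to 20.5 and 22.9 at 2 h, without overlap, and did not pass the test on either scale (−0.67, adjusted p = 0.0648; centred −0.21, adjusted p = 0.368). Rrm1 stood at 40.2 and 40.9 at 0 h and 37.7 and 34.3 at 2 h (−0.17, adjusted p = 0.629). All 4 genes of the role thus had both 2 h libraries below both 0 h libraries, as had 74.4% of all genes tested. At Tyms the Ikaros summit had 37 and 46 fragments at 0 h and 20 and 20 at 2 h, in libraries of lower coverage. Relative to the mean coverage it stood at 10.3 and 14.7 at 0 h and at 7.02 and 9.41 at 2 h. The Ikaros rank of Tyms at 2 h was below that at 0 h in both replicates. With a peak in 7 of the 8 Ikaros libraries, Tyms had no Ikaros test.

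Cdt1 and Cdc45 moved the other way relative to all genes. Cdt1, the member with the highest H3K27ac summit, stood at 66.3 and 58.8 at 0 h, 88.0 and 55.2 at 30 min, 102.5 and 71.8 at 1 h and 65.5 and 71.4 at 2 h. The 2 h libraries overlapped with those at 0 h, while the median of all genes was lower in both 2 h libraries. Cdc45, the helicase activator, stood at 20.7 and 15.1 at 0 h and at 23.0 and 20.2 at 2 h, also with overlap. At 1 h, Cdt1 (+0.67, adjusted p = 0.0275) and Pole (+0.64, adjusted p = 0.0322) were higher after centring, where 1.82% of all genes were.

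**Figure D4:**
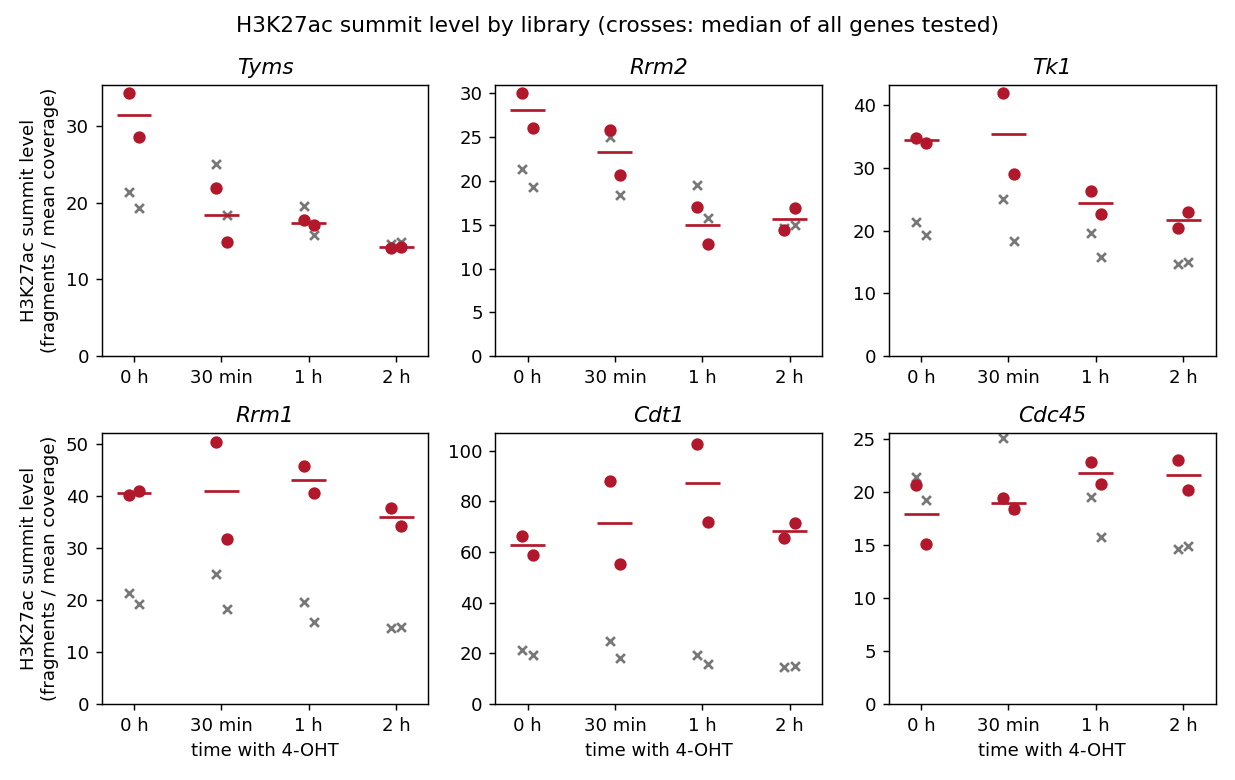
H3K27ac summit level (y axis, fragments over mean coverage, linear from 0) by time with 4-OHT (x axis) at 6 replication genes. Red points are the 2 libraries per time, red bars their mean and grey crosses the median of 9729 genes in the same library; at 2 h both libraries of Tyms, Rrm2, Tk1 and Rrm1 lie below those of 0 h, while Cdt1 and Cdc45 overlap with 0 h as the median lies lower.

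A further 36 genes of the pathway outside the list, among them licensing kinases, checkpoint factors, chromatin assembly factors and the E2F genes, were counted in the same way. Ikaros was gained at 6 of them (16.7%) and lost at 0, and was called in both 2 h libraries at 26 (72.2%). CHD4 was called in both 2 h libraries at 8 (22.2%), and H3K27ac was called in all 8 libraries at each of the 36. In the H3K27ac summit level at 2 h, 0 of 36 rose and 3 fell, Dna2, a nuclease and helicase, Pold4, a small polymerase delta subunit, and E2f7, a repressor of the E2F family (−0.84, −0.78 and −0.72, limma adjusted p = 0.0194, 0.0324 and 0.0464), with a median of −0.36. After centring 0 passed in either direction, and the median was +0.10. For 24 genes of mitosis the shares were 25% with Ikaros gained, 62.5% with Ikaros and 20.8% with CHD4 in both 2 h libraries, and 9 of 23 measured genes fell in H3K27ac summit level while 0 rose (median −0.55, after centring 2 higher, 2 lower and a median of −0.09). The differences between these lists were not tested.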

How the data were processed

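ChIP-seq peak lists of 24 libraries (HA-Ikaros, CHD4 and H3K27ac at 0 h, 30 min, 1 h and 2 h, 2 replicates each) were analysed. The 8 input libraries were not used here. The authors aligned reads to mm10 with Bowtie2 2.4.2, marked duplicates with Picard 2.23.7 and called peaks with MACS2 2.2.7.1, narrow for Ikaros and H3K27ac and broad for CHD4, with deepTools 3.5.0 also named in their processing notes. Their methods describe 0 h, 1 h and 2 h. The settings for 30 min and the input used for each library are not given in the sources used here. Per the labels, chromatin was fragmented by sonication or MNase, and which library had which is not given in the sources used here.

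Each list deposited by the authors holds a score for display, which was not used, a fold enrichment (ratio) over local background, and, for the peak, its p-value and q-value as −log10. The deposited fold enrichment was turned into a percentile rank within its list, from 0 to 100. It was used with the deposited −log10 p to recover the whole fragments at each summit and the mean coverage of the narrow lists (99.98% to 100% whole within 0.05). Broad lists give averages over a region, and depth is therefore unknown for CHD4. The summit level is the fragments over the mean coverage. The lists hold no read counts per gene, so no count model was run. No 2 lists were identical, and greater depth lets weaker peaks pass.

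A gene was called where a peak overlapped the 5 kb on either side of any of its GENCODE M21 start sites, and its value was that of its highest peak, which need not be the same peak in every library. Calls are described without a test. Ranks and log2 summit levels were fitted with limma 3.58.1 (R 4.3.3; empirical Bayes, 1 mean per time, all 8 libraries of a target, genes with a value in all 8), with Benjamini-Hochberg adjustment over all genes tested and a threshold of 0.05. Members that failed this filter have no test. The fits were tested on simulated data. Start sites and promoter sequences came from GENCODE and RefSeq, and words were counted with Python 3.11.15, numpy 2.4.6, pandas 2.3.3, scipy 1.17.1 and pysam 0.24.0. Figures were drawn with matplotlib 3.10.9.

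The members, the lists and the tests were chosen with earlier results of these data known. Genes were named by rule: those gained or lost by call, those past a test or otherwise the 3 largest differences each way, the 8 highest in Ikaros at 2 h, those without an Ikaros peak, and the highest and lowest in H3K27ac per role. Others were named after their values were seen (Mcm5, Mcm6, Cdc45 for its Ikaros call, Rfc1, Rfc5, neighbouring genes, Klf1, Dna2, Pold4 and E2f7), as were the stretches of sequence chosen for print. By rank, replicate numbers did not pair the libraries: the correlation of deviations between same-numbered libraries was −0.059 to 0.0946 for all pairs of times. Pairing was not checked on the summit level, where a replicate block gave 9 members for H3K27ac against 6 without it. One stretch of sequence is not reported here.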

Additional observations from a re-analysis of the deposited data

How the results depend on the processing

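Members called by rank numbered 0 for Ikaros, CHD4 and H3K27ac under every alternative run, among them log2 fold enrichment, a 1 kb window, lists of equal size and leaving out each library, except that summit levels gave 6 members for H3K27ac. For CHD4 no member had a value in all 8 libraries, so 0 says nothing about the members there, except with missing peaks at rank 0, where 30 members were tested and 4 had an unadjusted p under 0.05. The replicate block gave 0 members by rank for each target, 0 for the Ikaros summit level and 9 for the H3K27ac summit level, where it moved the genes called lower from 1732 to 3064. Leaving out 1 library gave 0 to 9 members for the H3K27ac summit level and 0 to 4 for its centred form, with the low counts where a 0 h or 2 h library was left out and the lone library was assumed to vary like the others. Centring, chosen after seeing the data like all alternatives of the summit level, gave 1 member for Ikaros.

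Over all genes, the 16 called by Ikaros rank at 2 h became 5 higher and 43 lower with log2 fold, 0 when ranked again among the genes tested, 340 and 75 with missing peaks at rank 0, 2 with equal lists, 0 with the block, 0 by the exact permutation test of Spearman's rho, and 0 when a library of 0 h, 1 h or 2 h was left out. The 0 called for H3K27ac became 5 higher and 140 lower with log2 fold and 1 and 2 with missing peaks at rank 0.

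Ikaros gains and losses together came to 6 at a −log10 q of at least 3 (6 gained, where 11.9% of other genes were), 2 with equal lists and 11 to 14 when 1 library was left out (18.7% to 22.1% of other genes gained). CHD4 gains and losses came to 0 at that q, 1 at a fold of at least 3 (3.58% of other genes gained), 0 with equal lists (1.33%) and 3 to 11 with 1 library left out. The difference of the members from other genes at 2 h was 9.81 points for Ikaros. It was 13.1 with a 1 kb window, 6.29 with 20 kb, 2.46 with equal lists, −2.74 against genes with an H3K27ac rank of at least 75, and 8.65 to 10.96 with 1 library left out. For CHD4 it was 3.32 points. It was 1.10 with 1 kb, 0.457 with 20 kb, −2.50 at that q, 4.32 at that fold, −3.13 with equal lists, 1.47 against genes of every type, −9.38 against rank 75, 2.56 with the peak centre inside the window, and 2.81 to 3.83 with 1 library left out. For H3K27ac it was 2.09 points. It was 2.86 with 1 kb, 1.26 with 20 kb, 2.77 at that q, 2.71 at that fold, 2.57 with equal lists, 2.33 against every type, 0 against rank 75, 2.30 with the centre inside, and 1.98 to 2.197 with 1 library left out. The causes of these differences were not tested. The CHD4 summit level was not run, since broad lists hold no summit.

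In simulated data a log2 change of −1 in H3K27ac summit level was recovered in 117 of 200 genes (58.5%) and in that of Ikaros in 87 of 200 (43.5%), and a shift of 50 rank points in 175 of 200 (87.5%) for H3K27ac and 23 of 74 (31.1%) for CHD4. A shift of 25 rank points was recovered in 0 of 200 genes for H3K27ac and 0 of 74 for CHD4.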
